A study of Gallus gallus with 18 samples.

Results

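The genes described here are the neuregulin ligand NRG1, the receptors ERBB2, ERBB3 and ERBB4, and 4 genes of the Schwann cell lineage, FABP7, PMP22, S100B and MBP, in the developing chick trigeminal ganglion. They were taken by symbol from the deposited gene table. All 8 symbols were found, each on 1 of the 30108 rows, and all 8 were among the 17724 genes kept by the filter on low counts.

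Pools of trigeminal ganglia, the sensory ganglia of the face, came from wild-type chick embryos of an early (HH13-14), a middle (HH15-16) and a late (HH17-18) stage, numbered after Hamburger and Hamilton (HH). There were 3 biological replicates (pools) per stage and no treatment, and each pool was sequenced as 2 technical replicates, on lanes 7 and 8, whose counts were summed here. The libraries were made from poly(A)-enriched RNA. The 9 pools held 53458986 to 68083147 counts each. Neither the number of embryos in a pool nor their sex is given in the sources used here.

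In nerves, NRG1 on the surface of axons binds ERBB3 on crest-derived glial precursors. ERBB3 has little kinase activity of its own and signals as a dimer with ERBB2, which binds no known ligand, and in mouse this signal keeps Schwann cell precursors alive and guides them along axons. ERBB4 is a neuregulin receptor with an active kinase, and in mouse embryos it is found in the hindbrain. FABP7, a fatty acid binding protein, marks glial precursors of nerves in mouse as well as neural progenitors of the brain. PMP22 and MBP are proteins of the myelin sheath, which forms long after these stages, and S100B is a calcium-binding protein of glia.

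In the reported edgeR fit, 0 of the 8 genes passed an adjusted p of 0.05 between stages, while DESeq2 called 1, MBP, over the whole interval and on the later step. Of all genes tested over the whole interval, edgeR called 4.51% and DESeq2 9.62%. On the later step they called 0.079% and 1.72%. Of the 8, the nearest to passing in edgeR were MBP and NRG1. Their levels were 2.18-fold and 1.47-fold higher at HH17-18 than at HH13-14. For FABP7, ERBB3, ERBB4 and S100B the SD between pools within stages (0.43, 0.52, 0.92 and 0.31 on the log2 scale) was larger than the range of the stage means (0.19, 0.42, 0.54 and 0.02).

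Levels are in CPM, the counts of a gene scaled to a common library size, with library sizes adjusted by the trimmed mean of M-values (TMM). They compare a gene between pools. They do not compare genes with each other, since transcript lengths were not used here. Chromosome positions are those of RefSeq on build GRCg7b, matched by symbol. The submitters' processing notes name the same build. No sequence of these genes or of their proteins was used.

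**Figure D1:**
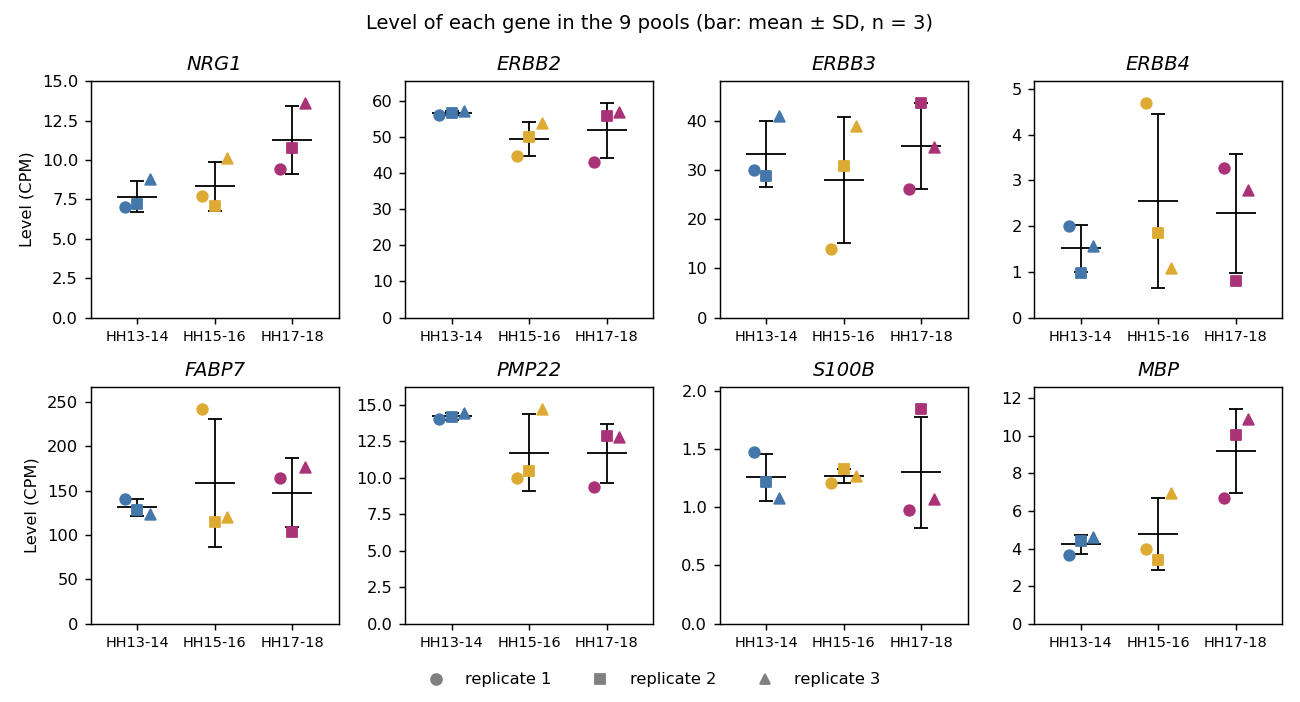
Level of each of the 8 genes in CPM (vertical axis, from 0) in the 3 pools of each stage (horizontal axis), with the mean ± SD as black bars and 1 symbol shape per replicate. MBP lies between 6.66 and 10.9 CPM in the pools of HH17-18 and between 3.67 and 4.59 CPM in those of HH13-14, while the FABP7, ERBB3 and ERBB4 panels show a wide spread within HH15-16.

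The ligand NRG1 (ENSGALG00010013914, chromosome Z, 54642186 to 55109784) was measured at 7.03, 7.20 and 8.80 CPM in the pools of HH13-14. The values were 7.75, 7.11 and 10.1 CPM at HH15-16 and 9.42, 10.7 and 13.7 CPM at HH17-18. All pools of HH17-18 lay above all pools of HH13-14, a separation found, in either direction, for 31.4% of all genes tested. The pools of HH15-16 overlapped each of the other stages. The means were 7.68 ± 0.980, 8.32 ± 1.58 and 11.3 ± 2.17 CPM (SD, n = 3 each). From HH13-14 to HH17-18 the log2 fold change was 0.55 (SE 0.19, 95% interval 0.13 to 0.98, adjusted p 0.133 in edgeR), so the difference did not pass the threshold of 0.05. The pools of each stage overlapped on either single step, where the log2 fold changes were 0.12 (SE 0.19, adjusted p 0.870 in edgeR) and 0.44 (SE 0.19, adjusted p 0.522 in edgeR).

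NRG1 is a gene of the Z sex chromosome, of which male chicks have a pair of copies and females a single one. The 576 Z-linked genes tested had a median log2 fold change of 0.03 from HH13-14 to HH17-18, against -0.01 for 11446 autosomal genes. Their median was 0.12 on the earlier step and -0.09 on the later one. By pool, the median level of Z-linked genes relative to each gene's mean over the pools ran from -0.14 to 0.14 on the log2 scale, with the lowest value in replicate 2 of HH13-14 and the highest in replicate 1 of HH15-16. The part of this in the NRG1 values was not tested.

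The co-receptor ERBB2 (ENSGALG00010024479, chromosome 27, 4224294 to 4233772) varied least of the 8 genes. Its levels were 56.2, 56.5 and 57.1 CPM at HH13-14. At HH15-16 they were 44.6, 50.1 and 53.8 CPM, and at HH17-18 43.0, 55.7 and 56.8 CPM. All pools of HH15-16 lay below those of HH13-14, a separation found, in either direction, for 16.6% of all genes tested. The pools of HH17-18 overlapped both earlier stages. The log2 fold change was -0.19 on the earlier step (SE 0.11, 95% interval -0.45 to 0.06, adjusted p 0.599 in edgeR) and -0.13 over the whole interval (SE 0.11, 95% interval -0.38 to 0.13, adjusted p 0.568 in edgeR).

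ERBB3 (ENSGALG00010024829, chromosome 34, 1373726 to 1390658), the receptor that binds neuregulin on crest-derived glia, stood at 30.0, 28.7 and 41.0 CPM in the pools of HH13-14. It stood at 13.9, 30.8 and 39.1 CPM at HH15-16 and at 26.2, 43.7 and 34.7 CPM at HH17-18. The stages overlapped throughout, and the low value of the set was replicate 1 of HH15-16. Over the whole interval the log2 fold change was 0.07 (SE 0.32, 95% interval -0.64 to 0.78, adjusted p 0.924 in edgeR). On the earlier step it was -0.25 (SE 0.32, adjusted p 0.825 in edgeR), and without replicate 1 of HH15-16 it was 0.06.

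ERBB4 (ENSGALG00010011625, chromosome 7, 3133650 to 3625134) had few counts, 44 to 276 per pool, and the largest spread of the 8 genes. Levels were 2.01, 0.972 and 1.56 CPM at HH13-14, then 4.70, 1.85 and 1.09 CPM at HH15-16, and 3.26, 0.804 and 2.78 CPM at HH17-18. The highest pool of HH15-16 had more than the 2 others of that stage together, and the lowest pool of the series was replicate 2 of HH17-18. The SD within stages was 0.92 on the log2 scale, higher than for 96.5% of the genes kept. The log2 fold changes were 0.75 on the earlier step (SE 0.59, 95% interval -0.56 to 2.05, adjusted p 0.698 in edgeR) and 0.59 over the whole interval (SE 0.59, 95% interval -0.72 to 1.90, adjusted p 0.611 in edgeR). Without replicate 1 of HH15-16 the earlier step was -0.05.

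Among the glial genes, FABP7 (ENSGALG00010012780, chromosome 3, 60863627 to 60867040) had the most counts, 5668 to 14226 per pool. Its levels were 141, 128 and 124 CPM at HH13-14. At HH15-16 they were 242, 115 and 120 CPM and at HH17-18 164, 104 and 176 CPM. The stages overlapped, and a single pool, replicate 1 of HH15-16, held the highest level. The log2 fold change over the whole interval was 0.17 (SE 0.27, 95% interval -0.43 to 0.78, adjusted p 0.762 in edgeR). That of the earlier step was 0.28 (SE 0.27, adjusted p 0.759 in edgeR), and it was -0.16 without replicate 1 of HH15-16.

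PMP22 (ENSGALG00010029937, chromosome 18, 2940068 to 2953624), a membrane protein gene that tissues outside nerves also use, was at 14.0, 14.2 and 14.5 CPM at HH13-14. It was at 9.96, 10.5 and 14.7 CPM at HH15-16 and at 9.34, 12.9 and 12.8 CPM at HH17-18. Every pool of HH17-18 lay below every pool of HH13-14, a separation found, in either direction, for 31.4% of all genes tested. The pools of HH13-14 were close together. The log2 fold change was -0.29 (SE 0.18, 95% interval -0.69 to 0.11, adjusted p 0.397 in edgeR) and did not pass the test. Without replicate 1 of HH17-18 it was -0.15.

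S100B (ENSGALG00010013461, chromosome 7, 6960316 to 6964546) was near the floor of the measurement, with 61 to 101 counts per pool. Its means were 1.26 ± 0.201, 1.27 ± 0.0600 and 1.30 ± 0.475 CPM (SD, n = 3 each) in the order of the stages. The pools of all stages overlapped, and the log2 fold change over the whole interval was 0.04 (SE 0.30, 95% interval -0.62 to 0.71, adjusted p 0.951 in edgeR).

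MBP (ENSGALG00010007781, chromosome 2, 90091375 to 90199666), the gene of the protein that compacts myelin, was measured at 3.67, 4.39 and 4.59 CPM in the pools of HH13-14. It was at 3.95, 3.40 and 6.95 CPM at HH15-16 and at 6.66, 10.1 and 10.9 CPM at HH17-18. The pools of HH17-18 were all above those of HH13-14, a separation found, in either direction, for 31.4% of all genes tested. From HH15-16, 1 pool, replicate 3, reached into the range of HH17-18. In mouse the same gene also makes longer golli transcripts, found in neurons and in blood-forming and immune cells, and gene counts do not separate the kinds of transcript. The means were 4.22 ± 0.485, 4.77 ± 1.91 and 9.20 ± 2.24 CPM (SD, n = 3 each).

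The log2 fold change of MBP was 1.13 over the whole interval (SE 0.29, 95% interval 0.49 to 1.76), and its adjusted p in edgeR was 0.0532, just over the threshold. It was 0.18 on the earlier step (SE 0.28, adjusted p 0.866 in edgeR) and 0.95 on the later one (SE 0.28, adjusted p 0.306 in edgeR). The difference between the steps was 0.77 (SE 0.50, adjusted p 0.932 in edgeR). DESeq2 gave MBP an adjusted p of 0.00196 over the whole interval and 0.0429 on the later step. Over 17 alternative settings the log2 fold change of the whole interval ran from 0.97 to 1.31 and the adjusted p from 0.00196 to 0.193. Of the 17, 8 put MBP past the threshold. Among these 8, DESeq2 called 1784 of 18542 genes, the fit with no filter 935 of 26169 and the replicate block 876 of 17724. Fits without replicate 1, 2 or 3 of HH15-16 called 1508 of 18159, 695 of 18099 and 868 of 18151. The fit without replicate 1 of HH17-18 called 649 of 18124. The highest adjusted p of MBP was in the fit without replicate 1 of HH13-14. That fit called 98 of 18176 genes over the whole interval, against 800 of 17724 in the reported fit.

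**Figure D2:**
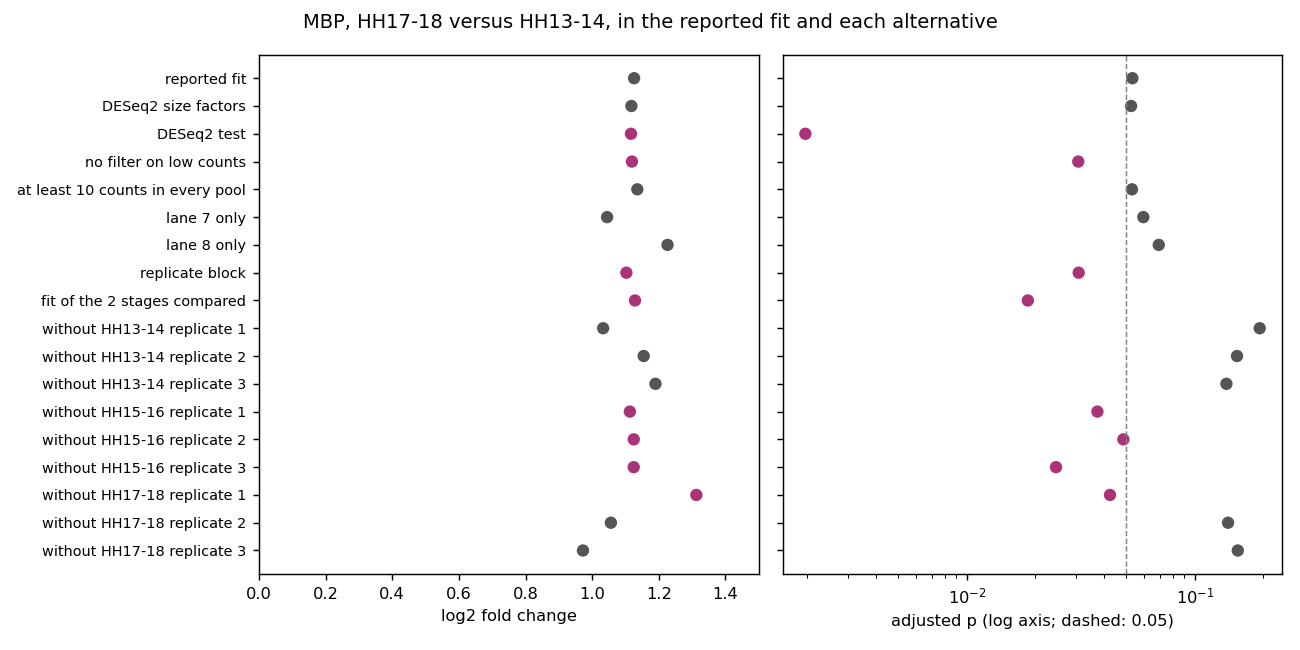
MBP at HH17-18 against HH13-14 in the reported fit and the 17 alternatives (rows), with the log2 fold change on the left and the adjusted p on a log axis on the right; coloured points are past the threshold of 0.05. The fold change stays between 0.97 and 1.31, while the adjusted p lies on both sides of the threshold.

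The 8 genes were set beside all genes, with no test of the 8 as a group. From HH13-14 to HH17-18, 0 of the 8 passed in edgeR, where 4.51% of the genes tested did. At an unadjusted p under 0.05 there were 2, NRG1 and MBP, against 21.6% of all genes. The pools of HH17-18 and HH13-14 did not overlap for 3 of the 8, NRG1, PMP22 and MBP, or 37.5%, against 31.4% of all genes. DESeq2 called 1 of them, MBP, and 9.62% of the genes it tested. The median log2 fold change of the 8 was 0.12, and that of all genes tested was 0.02.

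On the earlier step 0 of the 8 passed in edgeR, where 0% of all genes did, and 0 were at an unadjusted p under 0.05, against 10.1%. ERBB2 alone had pools that did not overlap between HH13-14 and HH15-16, against 16.6% of all genes, and DESeq2 called 0 of the 8 and 0.605% of the genes it tested. On the later step 0 passed in edgeR, against 0.079%, and 2, NRG1 and MBP, were at an unadjusted p under 0.05, against 9.32%. None of the 8 had separate pools there, against 11.5% of all genes, and DESeq2 called 1, MBP, and 1.72% of all.

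The test of any stage effect called 0 of the 8 in edgeR, against 1.3% of all genes, with NRG1 and MBP at an unadjusted p under 0.05, against 16.7%. DESeq2 called MBP and 7.6% of the genes it tested. For the difference between the later and the earlier step, 0 of the 8 passed in edgeR, against 0.00564%, and 0 were at an unadjusted p under 0.05, against 4.36%. DESeq2 called 0 of the 8 and 0.0344% of all genes for that difference.

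**Figure D3:**
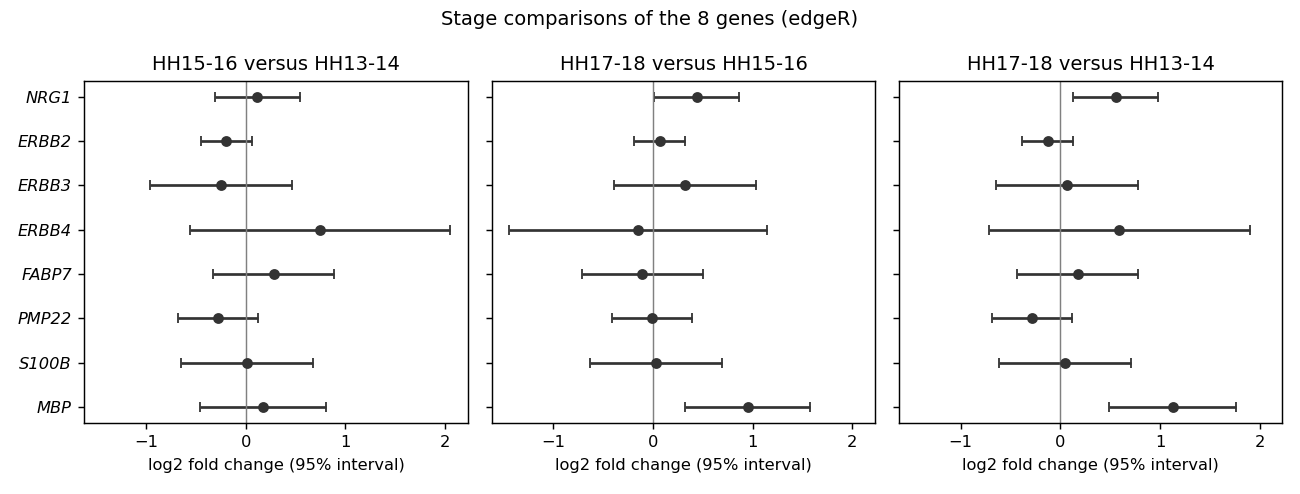
log2 fold change of each gene (horizontal axis) with its 95% interval from the edgeR fit, for the earlier step, the later step and the whole interval. The intervals of MBP and NRG1 lie above 0 on the later step and over the whole interval before adjustment for the number of genes tested, and those of ERBB4 are the widest.

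The summed level of the 12 neural tube markers found ran from 359 to 456 CPM at HH13-14, from 220 to 608 CPM at HH15-16 and from 140 to 419 CPM at HH17-18. These markers included PAX6, EN1, EN2, WNT1 and OTX2, and SOX3 had 0 counts in every pool. The highest sum was in replicate 1 of HH15-16 and the lowest in replicate 2 of HH17-18. In bulk tissue, fewer cells of a type and less RNA per cell cannot be told apart.

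FABP7 and ERBB4 were also highest in replicate 1 of HH15-16 and lowest in replicate 2 of HH17-18. ERBB3 was lowest in the former pool and highest in the latter. So was the summed level of 9 mesenchyme markers, at 1925 and 4416 CPM. In replicate 1 of HH15-16 the sums of some other marker lists were also their lowest of the 9 pools. They were 786 CPM for crest glia, 926 for neuron, 603 for blood, 249 for endothelium, 165 for surface ectoderm and 26.1 for skeletal muscle. None of these was at its highest in replicate 2 of HH17-18. The melanoblast, macrophage and further myelin sums were not at their lowest in replicate 1 of HH15-16. The transcription factor SOX10, which marks neural crest and its glia, was at 69.6 CPM in replicate 1 of HH15-16, 96.7 CPM in replicate 1 of HH17-18 and 140 to 237 CPM in the other 7 pools. The part of neural tube tissue, mesenchyme or other tissues in the FABP7, ERBB4 and ERBB3 values was not tested.

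**Figure D4:**
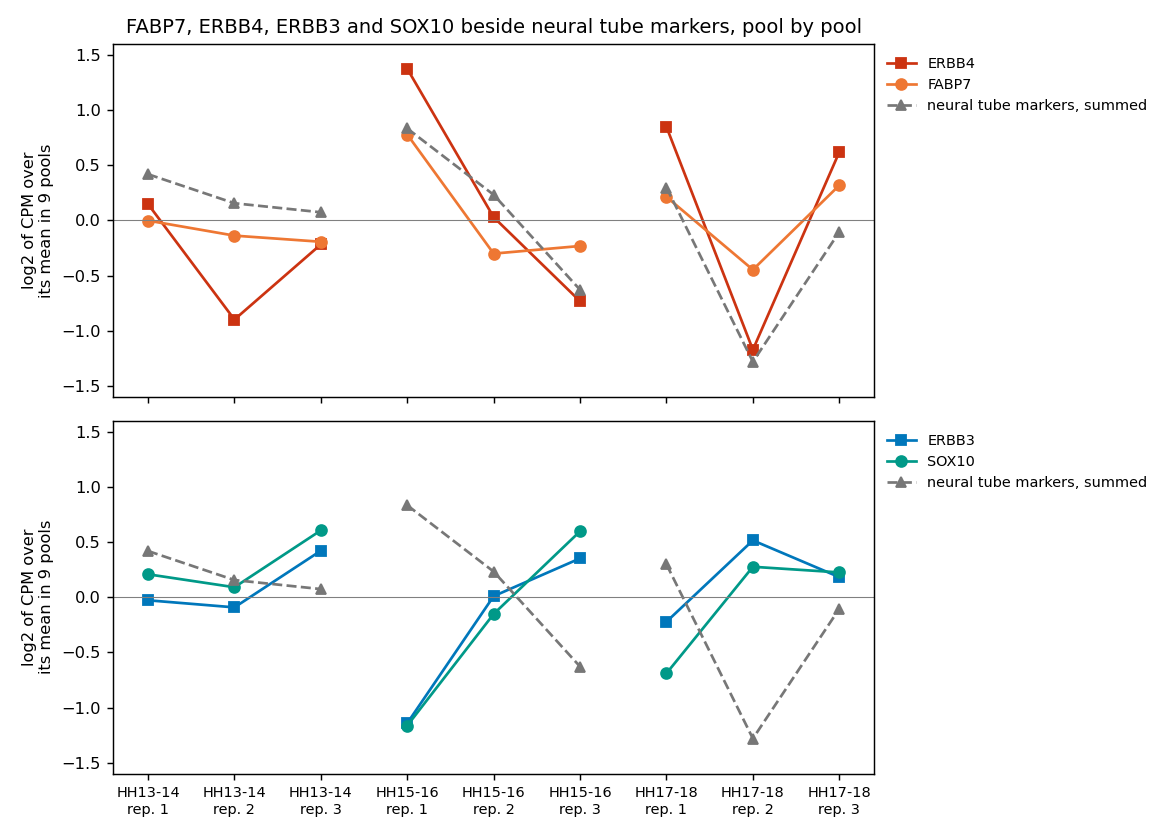
log2 level relative to the mean of the 9 pools (vertical axis) for ERBB4 and FABP7 (top) and for ERBB3 and SOX10 (bottom), each beside the summed neural tube markers, pool by pool. In replicate 1 of HH15-16 ERBB4, FABP7 and the neural tube markers are at their highest and ERBB3 and SOX10 at their lowest.

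Over the 9 pools the Pearson correlation of log2 CPM between FABP7 and ERBB4 was 0.89 (Spearman 0.83), and it was 0.76 without the 2 pools farthest from the ERBB4 median. Between FABP7 and ERBB3 it was -0.84 (Spearman -0.72), and -0.88 in deviations from the stage means. It was weaker, at -0.34, without the 2 pools farthest from the ERBB3 median. Between ERBB3 and ERBB4 it was -0.75 (Spearman -0.68), and -0.36 without the same 2 pools. NRG1 and MBP had a correlation of 0.95 (Spearman 0.97), 0.93 without the 2 pools farthest from the NRG1 median and 0.89 in deviations from the stage means. ERBB2 and PMP22 had one of 0.91 (Spearman 0.65), which was 0.74 without 2 pools. These are 5 of 28 pairs, named after their values were seen, and are descriptions. The points share pools and depth.

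Among 9761 other genes with a symbol and a mean of at least 5 CPM, those most like ERBB3 over the 9 pools were DLX2, B3GNT9 and EYA2, with Pearson correlations of 0.97, 0.97 and 0.97. DLX2 is a homeobox gene of pharyngeal arch crest, and EYA2 is expressed in cranial placodes. The genes most like FABP7 were ABCD3, SH3BGRL2 and PTBP2 (0.98, 0.98 and 0.97), of which PTBP2 is a splicing regulator of neural cells. For ERBB4 they were NHS, ELOVL4 and NAXD (0.96, 0.96 and 0.95, among 9762 genes).

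The genes most like NRG1 were CENPF, TSPAN7 and OSBPL8 (0.97, 0.96 and 0.95), and those most like MBP were PARVB, STARD13 and ATP10D (0.98, 0.97 and 0.97). CENPF is a kinetochore gene of dividing cells and PARVB an adaptor of integrin adhesions. For ERBB2 the list was GMPPB, FHIP1B and SMYD3 (0.97, 0.96 and 0.96) and for PMP22 ARHGAP26, UBTD1 and TBCC (0.97, 0.96 and 0.95). For the low gene S100B the correlations were lower, 0.91 for NAGLU, 0.89 for ATF7 and 0.89 for JMJD8.

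Ratios within a pool do not depend on the scaling of libraries, and 5 of them were compared over the stages. The counts of ERBB3 per count of SOX10 were 0.167, 0.173 and 0.173 at HH13-14. They were 0.199, 0.219 and 0.165 at HH15-16 and 0.271, 0.232 and 0.190 at HH17-18, with each HH17-18 pool higher than each HH13-14 pool. The mean log2 ratio was 0.42 higher at HH17-18 than at HH13-14 (two-sided exact permutation test of the stage effect, p = 0.0893, 0.446 adjusted over the 5 ratios). With 3 pools per stage that test cannot go below 0.00357.

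The other ratios also did not pass. FABP7 per SOX10 was between 0.509 and 3.48 at HH15-16 alone (exact permutation p 0.675, adjusted 0.761). ERBB2 per ERBB3 count ran from 1.27 to 3.21 over the pools (exact permutation p 0.682, adjusted 0.761) and ERBB4 per ERBB3 from 0.019 to 0.339 (exact permutation p 0.761, adjusted 0.761). The ligand to receptor ratio, NRG1 per ERBB3, was 0.215 to 0.251 at HH13-14, 0.231 to 0.559 at HH15-16 and 0.246 to 0.393 at HH17-18 (exact permutation p 0.486, adjusted 0.761).

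Other genes of the pathway and the lineage were followed as lists. Of 64 genes tested from the 5 pathway and glia lists, 6 passed over the whole interval, 2 of them higher at HH17-18 and 4 lower, where 2.4% of all genes tested were called higher and 2.12% lower. Without replicate 1 of HH15-16, which belongs to neither stage but enters the estimate of spread, 11 passed, and 8.3% of all genes did. These 11 were the same 6 with EGFR, JUN, FOXD3, TFAP2A and TFAP2B. In that fit EGFR and JUN were higher at HH17-18, at log2 fold changes of 0.62 and 0.99. FOXD3, TFAP2A and TFAP2B were lower, at -1.03, -0.75 and -0.64. Fits without 1 pool of HH13-14 called 98, 120 and 106 of all genes in the order of the replicates, against 800 with all pools. Those without 1 pool of HH17-18 called 649, 290 and 177. Losses of a listed gene in these fits are to be read beside that.

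Of 8 further EGF-family ligands tested, 1 rose and 0 fell, and their median log2 fold change was 0.16. EGF, the founding ligand of the receptor EGFR, rose from 0.314 ± 0.140 CPM at HH13-14 to 2.87 ± 1.35 CPM at HH17-18 (SD, n = 3), or 3.20 as log2 fold change (SE 0.51, adjusted p 0.0117 in edgeR). Its counts were 12 to 254 per pool, and it missed the threshold without replicate 1 or replicate 2 of HH13-14. The neuregulin genes NRG2, NRG3 and NRG4 did not pass, at 0.41, -0.38 and 0.07 on the log2 scale (adjusted p 0.682, 0.375 and 0.813 in edgeR). NRG2 was at 0.152 to 0.328 CPM in the stage means.

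Among 19 genes of neuregulin processing, receptor relay and feedback, 0 passed in edgeR, against 4.51% of all genes. At an unadjusted p under 0.05 in edgeR there were 2, against 21.6% of all genes. They were BACE1, at a log2 fold change of -0.15, and BACE2, at 0.22. These are proteases, of which BACE1 cuts NRG1. The median log2 fold change of the list was -0.04. EGFR was at 32.0 CPM on average at HH13-14 and 49.8 CPM at HH17-18, with a log2 fold change of 0.64 (SE 0.30, adjusted p 0.254 in edgeR). Of 13 genes that respond to ERK, the kinase downstream of these receptors, 0 rose and 1 fell, with a median of -0.01. Their log2 fold changes were positive for 6 and negative for 7. JUN, of this list, was higher and passed only in the fit without replicate 1 of HH15-16, which called 8.3% of all genes. Its log2 fold change there was 0.99 (adjusted p 0.0142 in edgeR). MYC, a growth regulator, fell from 53.5 ± 8.69 to 28.5 ± 5.71 CPM (SD, n = 3), or -0.91 as log2 fold change (SE 0.16, adjusted p 0.0180 in edgeR). It missed the threshold without replicate 1 or 3 of HH13-14 and without replicate 3 of HH17-18.

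Of 17 other genes of Schwann cell precursors and crest glia that were tested, 0 rose and 2 fell, with a median log2 fold change of -0.13. The integrin gene ITGA4 fell from 144 ± 5.51 to 107 ± 4.37 CPM (SD, n = 3), or -0.42 as log2 fold change (SE 0.08, adjusted p 0.0231 in edgeR), and missed the threshold without any 1 pool of HH13-14 or without replicate 3 of HH17-18.

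The crest and glia regulators SOX10 and FOXD3 had log2 fold changes of -0.32 (SE 0.38, adjusted p 0.676 in edgeR) and -1.02 (SE 0.30, adjusted p 0.0822 in edgeR). CDH19, a cadherin gene used to mark Schwann cell precursors in mouse, was close to 0, at 0.0958 CPM on average at HH13-14 and 0.401 CPM at HH17-18, and was removed by the filter. It had 2 to 36 counts per pool.

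Of 7 further myelin genes tested, 1 rose and 1 fell, and 5 of the 12 written for that list had no row of that symbol. CLDN11, a tight junction gene of myelin that mesenchyme also uses, rose from 3.14 ± 0.0593 to 10.1 ± 3.84 CPM (SD, n = 3), or 1.68 as log2 fold change (SE 0.34, adjusted p 0.0275 in edgeR). GJB1, a gap junction gene, fell from 3.06 ± 0.225 to 1.43 ± 0.161 CPM (SD, n = 3), or -1.10 as log2 fold change (SE 0.23, adjusted p 0.0303 in edgeR). CLDN11 missed the threshold in 5 of 17 alternatives and GJB1 in 7, in each case including every fit without 1 pool of HH13-14. The median of the list was -0.01.

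**Figure D5:**
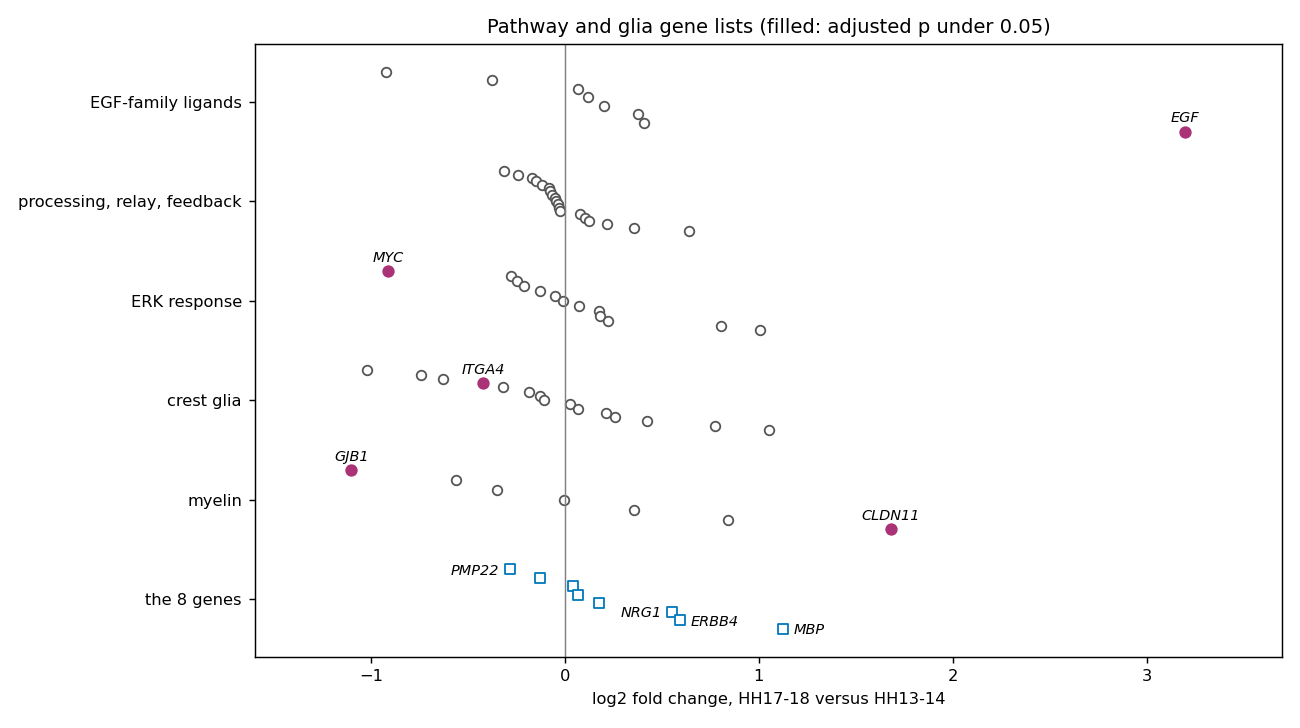
log2 fold change at HH17-18 against HH13-14 (horizontal axis) of genes of the 5 lists (circles) and of the 8 genes (squares), by row; filled points passed an adjusted p of 0.05. EGF and CLDN11 are the filled points above 0, and MYC, ITGA4 and GJB1 those below.

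Markers of other tissues were compared over the same interval, where edgeR called 2.4% of all genes tested higher and 2.12% lower. Of 9 neuron markers tested, 4 rose and 0 fell (STMN2, NEFL, NEFM and DCX), and their summed level was 1109 to 1174 CPM at HH13-14 and 1212 to 1914 CPM at HH17-18. Of 7 macrophage markers 5 rose and 0 fell (CSF1R, SPI1, PTPRC, CD74 and CTSS), with sums of 6.68 to 12.2 and 29.4 to 77.3 CPM. SPI1 had as few as 2 counts in a pool of the series, and C1QA had 0 counts in 1 pool of HH13-14. Of the 10 blood markers written for that list, 5 were found and tested. Among them 2 rose and 0 fell, HBAD and HBZ, with sums of 635 to 873 and 1148 to 1778 CPM. All 5 were at an unadjusted p under 0.05 in edgeR, 4 of them higher and 1 lower, against 21.6% of all genes. In replicate 3 of HH17-18 MBP, NRG1 and the neuron and macrophage sums were all at their highest of the 9 pools. The sums of the melanoblast markers and of the further myelin genes were also highest there, at 61.7 and 48.2 CPM. The blood sum was 1148 CPM there, the lowest of its stage. The part of neurons, macrophages or blood cells in the MBP and NRG1 values was not tested.

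Among the remaining marker lists, 2 of 7 surface ectoderm genes rose and 1 fell, 2 of 7 skeletal muscle genes fell and 0 rose, and 1 of 7 melanoblast genes, EDNRB2, rose and 0 fell. In edgeR 0 of 11 neural tube, 0 of 9 mesenchyme and 0 of 7 endothelium genes passed over the interval. At an unadjusted p under 0.05 there were 1, 2 and 1. Of all genes tested, 2.4% were called higher and 2.12% lower, and 21.6% were at an unadjusted p under 0.05. The neural tube genes had a median log2 fold change of -0.34, and all 11 were negative.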

How the data were processed

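The authors deposited whole-number counts per gene for 18 libraries, with a gene symbol for 14248 of 30108 genes. Per the submitters' processing notes, Trim Galore, HISAT2, featureCounts and build GRCg7b were used. Their settings, the annotation and the use of strand are not given in the sources used here, so overlapping or antisense reads and transcript isoforms cannot be told apart. All columns were matched by name, and 0 were left unused.

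Technical replicates were summed, so n = 3 pools per stage. Nothing says how pools were formed, so p-values set a stage difference against the spread between these pools only. The filterByExpr function of edgeR 4.0.16 (R 4.3.3) kept 17724 genes, which were scaled by TMM and tested together by edgeR's quasi-likelihood test with Benjamini-Hochberg adjustment, two-sided, in a single fit of the 9 pools. SEs and intervals are those implied by the test statistic and its degrees of freedom. log2 CPM for correlations used a prior count of 2, and ratios added 0.5 to each count. The procedure was tested on simulated counts. DESeq2 1.42.0 was run as an alternative. Alternatives changed the scaling, filter, lanes, fit or replicate block, or left out 1 pool.

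The 8 genes, the 14 lists and the tests were chosen with earlier results of these data known. The rule for named genes took the 8 genes, listed genes past an adjusted p of 0.05 over the whole interval, some listed genes whatever their values (among them SOX10, FOXD3, EGFR, NRG2, NRG3 and NRG4), and the 3 genes most correlated with each of the 8. BACE1, BACE2, CDH19, JUN, TFAP2A, TFAP2B, C1QA and the neural tube markers were named after their values were seen. Some genes that the rule names count in their lists but are not reported here.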

Additional observations from a re-analysis of the deposited data

How the results depend on the processing

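As reported, 0 of the 8 genes were called in each comparison. Over the whole interval 1 gene, MBP, was called with the DESeq2 test, with no filter on low counts, with the replicate block and in the fit of the 2 stages compared. Of all genes, DESeq2 called 1784 of 18542, the fit with no filter 935 of 26169 and the replicate block 876 of 17724. The reported fit called 800 of 17724. DESeq2 also called 1, MBP, on the later step and for the stage effect, against 1.72% and 7.6% of the genes it tested. Fits without 1 pool called 0 to 1 over the whole interval and 0 to 1 for the stage effect. Of all genes they called 98 to 1508 and 23 to 606. Of the recomputed log2 fold changes of the 8 genes, 372 kept their direction and side of the threshold, 27 reversed and 9 newly passed, all of them MBP. Between lanes 7 and 8 of a pool, the largest fold differences were 1.78 for ERBB4, 1.63 for S100B, 1.61 for MBP and 1.31 for PMP22. They were 1.22 for NRG1, 1.09 for ERBB3, 1.07 for FABP7 and 1.04 for ERBB2. The log2 fold change of MBP over the whole interval was 1.04 from lane 7 alone and 1.23 from lane 8 alone. On the earlier step S100B was -0.0511 from lane 7 alone. On the later step PMP22 was 0.12 and S100B -0.0352 from lane 8 alone, and S100B was -0.000402 with the replicate block. Leaving out 1 pool at a time gave ranges that crossed 0 on the earlier step of -0.048 to 0.23 for NRG1, -0.57 to 0.065 for ERBB3, -0.050 to 1.11 for ERBB4, -0.16 to 0.47 for FABP7, -0.079 to 0.14 for S100B, -0.20 to 0.37 for MBP. On the later step they were -0.013 to 0.18 for ERBB2, -0.00808 to 0.64 for ERBB3, -0.51 to 0.63 for ERBB4, -0.29 to 0.33 for FABP7, -0.12 to 0.19 for PMP22, -0.31 to 0.19 for S100B, and over the whole interval -0.13 to 0.25 for ERBB3, -0.29 to 0.21 for S100B. Some ranges over the whole interval kept their sign but moved by over 1.5 times from the reported value. These were -0.21 to -0.0093 for ERBB2, 0.24 to 0.99 for ERBB4, 0.017 to 0.37 for FABP7 and -0.37 to -0.15 for PMP22. The range of NRG1 over the whole interval was 0.38 to 0.67. The lowest size was reached without replicate 1 of HH17-18 for ERBB2, ERBB4 and PMP22 and without replicate 3 of HH17-18 for FABP7. The change in the ERBB4 to ERBB3 log2 ratio ran from -0.20 to 1.17. Listed pathway and glia genes called numbered 11 without replicate 1 of HH15-16, an alternative chosen after seeing the data, against 6 with all pools. The cause was not tested. Pools share the numbers 1 to 3 across stages. Correlations of their deviations ran from -0.06 to 0.30 (mean 0.07) over the 9 pairs with the same number. Over the 18 pairs with different numbers they ran from -0.40 to 0.32 (mean -0.03). Pools were not treated as paired in the reported fit. The replicate block changed no other call among the 8 genes.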
